A study of Mus musculus with 12 samples.

Results

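The 9 genes described here encode complement proteins and adipsin: C1qa, C1qb, C1qc, C1ra, C3, C4b, Cfb, Cfd and Cfp. They were taken by symbol from the table of read counts, which held all 9 among its 38924 genes. All 9 also passed the filter on low counts, as did 14870 genes in total. Interscapular brown fat, the heat-producing depot between the shoulder blades, was sampled from wild-type C57BL/6J mice and its total RNA was sequenced. The 12 mice were moved at 10 weeks of age to 1 of 3 ambient temperatures and sampled 4 weeks later, aged 14 weeks. The groups of 4 mice lived at 30 °C (labelled thermoneutral), at 22 °C (labelled room temperature) or at 6 °C (labelled severe cold). The labels give no other treatment and no altered gene in any group.

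Complement is a set of blood and tissue proteins that mark and destroy microbes and clear dead cells. C1q, assembled from A, B and C chains, recognises its targets and activates the proteases C1r and C1s, which cleave C4 and C2 to open the classical route. The alternative route is built from C3, factor B (Cfb) and the protease adipsin, also called factor D (Cfd), and is stabilised by properdin (Cfp). Both routes cleave C3, the hub of the cascade. Adipsin is a major secreted product of fat cells, whereas C1q in tissues is made mainly by macrophages.

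Levels are given as CPM, which are read counts relative to library size after TMM scaling between libraries, and differences as log2 fold changes with their standard errors (SE). A gene was called higher or lower at an adjusted p under 0.05 in edgeR's quasi-likelihood test, adjusted by the Benjamini-Hochberg method over all 14870 genes. The libraries held 18290162 to 32513051 counts, except 86438386 in 22 °C mouse 3. The library of that mouse also carried the code 8846, against 7509 to 7520 for the others, with no meaning stated here. That mouse also had the highest sum of the white adipocyte marker genes at 22 °C (10963.4 CPM, against 6731.4 to 7082.5 in the other 3 mice) and the lowest sum of the brown adipocyte markers (5470.9 CPM, against 8010.4 to 8613.2). The columns of a pair of 30 °C libraries, called mice A and B here, carry numbers that match no title and were placed at 30 °C by their letter alone. Their summed macrophage markers reached 1819.9 and 2129.0 CPM, against 633.2 and 661.9 CPM in 30 °C mice 1 and 2. Results that rest on these libraries are therefore also given without them. The brown adipocyte marker genes were present throughout, with sums from 3372.3 to 5063.1 CPM at 30 °C, 5470.9 to 8613.2 CPM at 22 °C and 14062.0 to 16481.3 CPM at 6 °C. Ucp1 was the largest part of the sum at 22 and 6 °C, with means of 1469.3, 3372.8 and 10438.9 CPM at 30, 22 and 6 °C. At 6 against 22 °C 3 of the 10 genes were higher and 2 were lower, beside 16.9% and 17.4% of all genes.

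At 6 °C, 7 of the 9 genes were lower than at 30 °C, 1 was higher (C3) and 1 did not pass the test (Cfb). Over all genes tested in that comparison, 31.5% were lower and 25.3% were higher. The ranges of the 2 groups did not overlap for 7 of the 9 genes, beside 51.5% of all genes. From 30 to 22 °C, 5 were lower and 1 was higher, beside 22.8% and 21.8% of all genes, and the ranges were apart for 6 of 9, beside 38.9%. Between 22 and 6 °C, adipsin and C1ra were lower, beside 17.4% of all genes, and the ranges were apart for adipsin alone, beside 34.9%. No gene of the 9 was called higher at 6 than at 22 °C by edgeR, beside 16.9% of all genes. At an unadjusted p under 0.05 there was 1 such gene, Cfp, and DESeq2 also called 1, while limma voom called 0. The median log2 fold change of the 9 genes was -1.70 at 6 against 30 °C, -0.90 at 22 against 30 °C and -0.22 at 6 against 22 °C. The medians of all genes were -0.11, -0.02 and -0.03. The comparisons share groups of mice, so their results are not independent of each other.

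**Figure D1:**
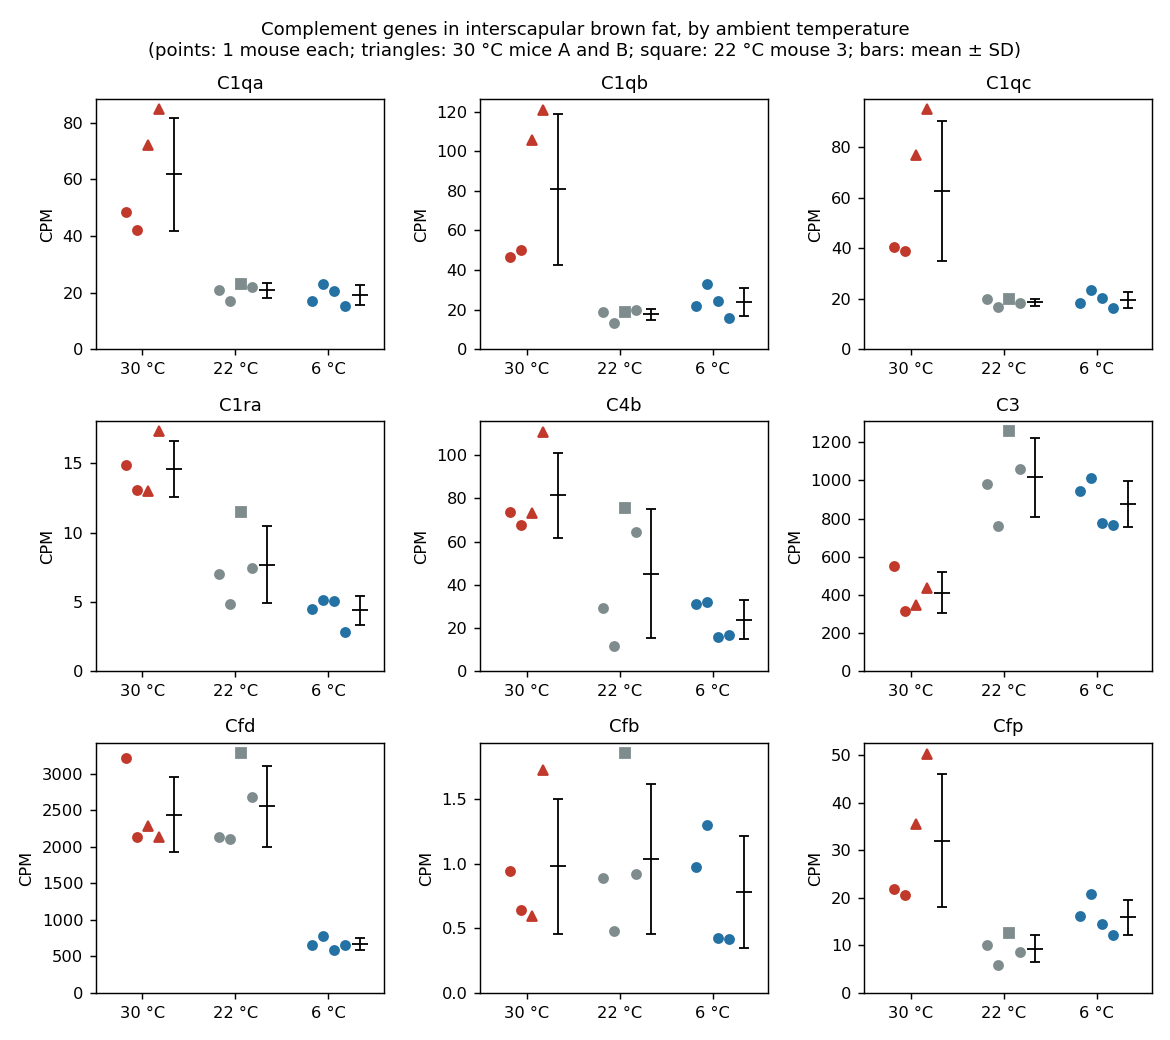
CPM of each of the 9 genes by ambient temperature, with 1 point per mouse and bars for the mean ± SD of 4 mice. Triangles are 30 °C mice A and B, and the square is 22 °C mouse 3. Cfd is low at 6 °C only, C3 is lowest at 30 °C, and the C1q chains are highest at 30 °C with mice A and B on top.

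Adipsin fell between 22 and 6 °C. The protease that cleaves factor B, adipsin is encoded by Cfd (ENSMUSG00000061780), a protein-coding gene on the plus strand at chr10:79890853-79892655 of GRCm38. At 30 °C it stood at 3214.6, 2141.2, 2288.9 and 2131.9 CPM in mice 1, 2, A and B. At 22 °C it stood at 2136.1, 2113.9, 3286.5 and 2691.2 CPM in mice 1 to 4. At 6 °C it stood at 656.5, 781.3, 585.7 and 659.7 CPM. All 4 mice at 6 °C lay below the lowest mouse of the other groups, while the ranges at 30 and 22 °C overlapped. The log2 fold change was -1.87 ± 0.17 (SE) at 6 against 30 °C, a 3.64-fold lower level (adjusted p = 2.2e-06), and -1.93 ± 0.17 at 6 against 22 °C (3.81-fold lower, adjusted p = 1.2e-05). Between 22 and 30 °C it was 0.07 ± 0.17 (adjusted p = 0.782). Whether both steps were alike was tested by subtracting the log2 change of the first step (30 to 22 °C) from that of the second (22 to 6 °C). This difference of the steps was -2.0 ± 0.28 for Cfd (adjusted p = 0.00053).

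Adipsin also made up a large part of the counts of the group. The 9 genes together held 0.365% ± 0.0657 of all counts at 30 °C (SD, n = 4), 0.353% ± 0.0843 at 22 °C and 0.152% ± 0.0246 at 6 °C. Cfd provided 76.5% ± 4.68 of that share at 30 °C, 69.2% ± 2.24 at 22 °C and 40.6% ± 2.27 at 6 °C. The highest Cfd value of both warmer groups lay in the mouse with the highest sum of white adipocyte markers, at 7843.5 CPM in 30 °C mouse 1 and 10963.4 CPM in 22 °C mouse 3. The skeletal muscle markers also summed highest in 30 °C mouse 1, at 4123.7 CPM against 770.6 to 1274.1 CPM in the other 30 °C mice. At 22 °C the muscle sum was highest in mouse 4 (3042.8 CPM). The summed white adipocyte markers, a list of 8 genes with none at 0 in any group, ranged from 4962.0 to 7843.5 CPM at 30 °C, from 6731.4 to 10963.4 CPM at 22 °C and from 746.6 to 1078.6 CPM at 6 °C. Of the 7 tested, 3 were lower and 1 was higher at 6 than at 30 °C, beside 31.5% and 25.3% of all genes. The sum is dominated by Car3 (means of 5882.9, 7658.1 and 777.6 CPM). The general adipocyte markers, 8 genes with none at 0, summed to 11824.8 to 13296.9 CPM at 30 °C and 16187.9 to 17295.7 CPM at 6 °C. Fabp4 was the largest part of that sum (means of 5961.4 and 8876.0 CPM). At 6 against 30 °C 5 of the 8 were higher and 1 was lower, beside 25.3% and 31.5% of all genes. The lower gene was Adipoq, with -0.78 at 6 against 30 °C (adjusted p = 2.8e-05) and 0.04 at 22 against 30 °C (adjusted p = 0.765). The part of these markers in the Cfd result was not tested. In bulk tissue, fewer cells of a type and less RNA per cell cannot be told apart, here or for any gene below.

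C3 moved the other way from most of the group. It is the central protein of the cascade and lies on the minus strand at chr17:57203970-57228136 (ENSMUSG00000024164). At 30 °C it stood at 553.4, 312.6, 346.0 and 434.3 CPM in mice 1, 2, A and B. The 22 °C mice 1 to 4 had 980.8, 763.0, 1262.0 and 1059.6 CPM, and the 6 °C mice had 944.4, 1012.3, 778.3 and 766.7 CPM. Every mouse at 22 and 6 °C lay above the highest mouse at 30 °C, and the ranges at 22 and 6 °C overlapped. C3 was higher at 22 than at 30 °C by 1.30 ± 0.19 log2 units (2.47-fold, adjusted p = 0.0002) and higher at 6 than at 30 °C by 1.09 ± 0.19 (2.13-fold, adjusted p = 0.00037). From 22 to 6 °C the log2 fold change was -0.22 ± 0.19 (adjusted p = 0.397). The difference of the steps was -1.52 ± 0.32 (adjusted p = 0.00402). The general adipocyte markers also had their lowest sums at 30 °C, and reached 18164.7 to 18687.4 CPM at 22 °C. Of these 8 markers, 6 were higher and 0 lower at 22 than at 30 °C, beside 21.8% and 22.8% of all genes. Their part in the C3 result was not tested.

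The ratio of C3 to adipsin lay higher at each colder temperature. The ratio of their CPM ranged from 0.146 to 0.204 at 30 °C, from 0.361 to 0.459 at 22 °C and from 1.16 to 1.44 at 6 °C, with no overlap between groups. This ratio and those below were chosen after their values were seen and carry no test. Per exon length, as CPM per kilobase of exon (RPKM), Cfd averaged 2650.9 ± 562.5 (SD, n = 4) at 30 °C, 2773.2 ± 601.8 at 22 °C and 727.5 ± 88.1 at 6 °C. C3 averaged 80.0 ± 20.9, 197.6 ± 40.1 and 170.2 ± 23.7 RPKM. Adipsin was thus 33.1 times as high as C3 per length at 30 °C, 14.0 times at 22 °C and 4.27 times at 6 °C.

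The 250 bases before the start of both genes are shown because these members had the highest levels of the group and responded to the cold in opposite directions. They come from RefSeq (GRCm38.p6), on the strand of the gene, with motif matches in capitals.
Cfd, chr10:79890603-79890852, plus strand: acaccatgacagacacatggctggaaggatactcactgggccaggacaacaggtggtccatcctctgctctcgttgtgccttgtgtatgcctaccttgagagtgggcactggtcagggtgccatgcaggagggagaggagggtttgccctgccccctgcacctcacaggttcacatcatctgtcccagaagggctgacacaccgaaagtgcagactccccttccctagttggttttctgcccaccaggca
C3, chr17:57228137-57228386, minus strand: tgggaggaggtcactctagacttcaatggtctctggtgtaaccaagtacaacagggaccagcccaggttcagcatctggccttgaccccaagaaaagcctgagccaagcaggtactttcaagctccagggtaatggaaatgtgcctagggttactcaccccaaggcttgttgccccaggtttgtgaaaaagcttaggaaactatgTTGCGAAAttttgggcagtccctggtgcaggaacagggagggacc
The capitals in C3 mark a match to TTGCNNAA, a motif of C/EBP factors, 45 bases before the start. That motif occurred in 9.56% of 32851 mouse promoter windows of the same length. The Cfd window held no match to it, to TATAAA (12.4% of windows), to GAGGAAGT (a PU.1 motif, 2.44%), to 2 copies of GAAA with 2 bases between them (an IRF motif, 2.98%) or to 2 copies of AGGTCA with 1 base between them (a PPAR motif, 0.0335%), on either strand. C3 held none of the last 4 either.

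The 3 chains of C1q fell together between 30 and 22 °C and stayed low at 6 °C. Their genes lie side by side on the minus strand of chromosome 4 within 18.7 kb, at chr4:136895917-136898803 (C1qa, ENSMUSG00000036887), chr4:136889804-136893065 (C1qc, ENSMUSG00000036896) and chr4:136880129-136886187 (C1qb, ENSMUSG00000036905). For mice 1, 2, A and B at 30 °C, C1qa stood at 48.4, 42.0, 72.0 and 84.7 CPM. Its values were 21.0, 17.1, 23.0 and 21.9 CPM at 22 °C, and 17.1, 23.0, 20.7 and 15.3 CPM at 6 °C. Every 30 °C mouse lay above every colder mouse, and mice A and B lay above mice 1 and 2.

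C1qb spread more widely at 30 °C, with 46.7, 49.9, 105.5 and 120.8 CPM in mice 1, 2, A and B. It stood at 18.6, 13.4, 18.9 and 19.6 CPM at 22 °C and at 21.6, 32.7, 24.5 and 15.8 CPM at 6 °C. C1qc gave 40.6, 38.7, 76.7 and 94.9 CPM at 30 °C, 19.7, 16.6, 19.7 and 18.1 CPM at 22 °C, and 18.2, 23.6, 20.2 and 16.1 CPM at 6 °C. For both, the 30 °C range again lay above both colder ranges, which overlapped each other.

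At 22 against 30 °C the log2 fold change was -1.57 ± 0.21 for C1qa, a 2.97-fold lower level (adjusted p = 0.00018). It was -2.19 ± 0.34 for C1qb (4.57-fold lower, adjusted p = 0.00051) and -1.76 ± 0.27 for C1qc (3.38-fold lower, adjusted p = 0.00041). At 6 against 30 °C all 3 chains were lower, with -1.70, -1.77 and -1.68 for C1qa, C1qb and C1qc (adjusted p of 4.7e-05, 0.00111 and 0.00031). From 22 to 6 °C none passed the test, with -0.13 ± 0.21, 0.43 ± 0.33 and 0.08 ± 0.27 in the same order (adjusted p of 0.677, 0.349 and 0.848). The difference of the steps was positive for each chain, at 1.45, 2.62 and 1.84 (adjusted p of 0.0142, 0.00913 and 0.0147). For C1qa it no longer passed without 22 °C mouse 2 (1.28, adjusted p = 0.0509).

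Without 30 °C mice A and B the fall of the chains was smaller and still passed. At 6 against 30 °C it was then -1.24 for C1qa (2.35-fold lower, adjusted p = 0.0001), -1.02 for C1qb (2.02-fold, adjusted p = 0.00569) and -1.01 for C1qc (2.01-fold, adjusted p = 0.00013). At 22 against 30 °C it was -1.12 for C1qa, -1.45 for C1qb and -1.10 for C1qc (adjusted p of 0.00059, 0.00162 and 0.00036). The differences of the steps were then 1.01, 1.89 and 1.19 (adjusted p of 0.0144, 0.00675 and 0.00285). The summed macrophage markers, 18 genes with none at 0 in any group, were also lower at 22 than at 30 °C, but from 22 to 6 °C they lay higher without overlap. They ranged from 633.2 to 2129.0 CPM at 30 °C, from 174.7 to 244.0 CPM at 22 °C and from 326.6 to 647.1 CPM at 6 °C. At 22 against 30 °C 15 of the 18 were lower and at 6 against 30 °C 14, beside 22.8% and 31.5% of all genes. None was higher in either comparison. At 6 against 22 °C 7 were higher and 2 lower, beside 16.9% and 17.4%. The fibroblast marker sum was high at 30 °C and low at both colder temperatures, as the C1q chains were, with 10 of 12 genes lower at 22 than at 30 °C. The part of these cells in the C1q result was not tested.

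Relative to the macrophage marker sum the C1q level was not constant. Lyz2 was the largest part of that sum, with means of 502.2, 55.8 and 153.8 CPM at 30, 22 and 6 °C. Not every marker followed the sum: Csf1r averaged 90.1, 20.5 and 24.2 CPM, beside 80.7, 17.6 and 23.7 CPM for C1qb. From 22 to 6 °C 9 of the 18 markers, Csf1r among them, were not called, as the C1q chains were not. The sum of the 3 chains was 14.0% to 21.4% of the macrophage marker sum at 30 °C, 24.8% to 26.9% at 22 °C and 10.1% to 15.7% at 6 °C. The 22 °C mice thus lay above all others, and the lowest 30 °C mice (A and B, at 14.0% and 14.1%) lay within the 6 °C range. The chains also differed among themselves. The ratio of C1qb to C1qa CPM ranged from 0.966 to 1.47 at 30 °C, from 0.783 to 0.894 at 22 °C and from 1.04 to 1.42 at 6 °C, so that every 22 °C mouse lay below the others.

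**Figure D2:**
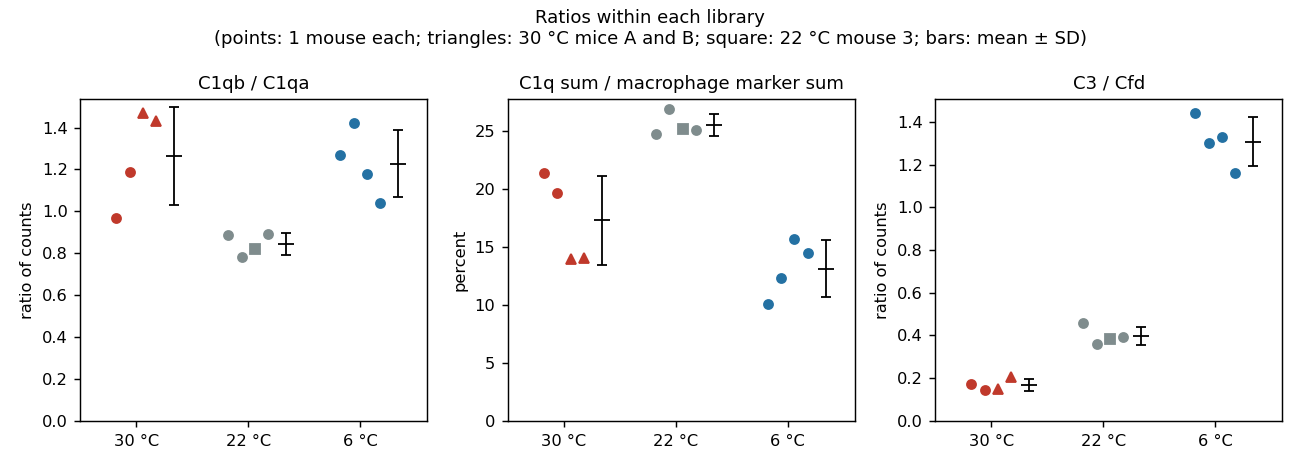
Ratios within each library by temperature: C1qb over C1qa CPM, the summed C1q chains as a percentage of the summed macrophage markers, and C3 over Cfd CPM, with 1 point per mouse and bars for the mean ± SD of 4 mice. Triangles are 30 °C mice A and B and the square is 22 °C mouse 3. The 22 °C mice are lowest in the first panel and highest in the second, and C3 over Cfd reaches 1.16 to 1.44 at 6 °C.

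The window before the C1qb start is shown as the example of the 3 chains that moved together, again from RefSeq (GRCm38.p6) on the strand of the gene.
C1qb, chr4:136886201-136886450, minus strand: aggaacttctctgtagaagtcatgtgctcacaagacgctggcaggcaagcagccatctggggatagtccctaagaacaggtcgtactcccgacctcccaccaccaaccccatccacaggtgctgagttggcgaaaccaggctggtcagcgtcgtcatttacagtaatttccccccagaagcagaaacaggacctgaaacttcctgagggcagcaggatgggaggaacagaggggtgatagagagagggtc
It held none of the 5 motifs searched. The C1qc window held the PU.1 motif on the opposite strand (read as ACTTCCTC, 195 bases before the RefSeq start). C1qa had no entry in the promoter table, nor had C4b and Cfb, so that 6 of the 9 genes were matched.

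C1ra and C4b were lower at 6 than at 30 °C. C1ra (ENSMUSG00000055172, chr6:124512405-124523443, plus strand) encodes the protease C1r. It stood at 14.9, 13.1, 13.0 and 17.3 CPM at 30 °C, 6.98, 4.83, 11.5 and 7.43 CPM at 22 °C, and 4.51, 5.11, 5.06 and 2.83 CPM at 6 °C. Its level decreased over the temperatures in turn, with the ranges at 22 and 6 °C overlapping through 22 °C mouse 2. The log2 fold change was -1.73 ± 0.24 at 6 against 30 °C (3.31-fold lower, adjusted p = 7.7e-05), -0.90 ± 0.24 at 22 against 30 °C (1.87-fold lower, adjusted p = 0.00767) and -0.82 ± 0.24 at 6 against 22 °C (1.77-fold lower, adjusted p = 0.0205). The last call was lost without 22 °C mouse 3, the deep library (-0.53, adjusted p = 0.0735), and without 6 °C mouse 4 (-0.67, adjusted p = 0.0509). With 30 °C mice A and B left out, the difference at 22 against 30 °C no longer passed (-0.85, adjusted p = 0.0516). The difference of the steps was 0.08 ± 0.41 (adjusted p = 0.908). C1ra shares 48.0% of its 50-base stretches with C1rb, which held 4 counts over all libraries beside 3576 for C1ra.

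C4b encodes complement C4, which becomes bound to targets and forms part of the enzyme that cleaves C3. The gene (ENSMUSG00000073418) lies on the minus strand at chr17:34728380-34743882, in the same stretch of chromosome 17 as Cfb. It stood at 73.7, 67.6, 73.3 and 110.7 CPM at 30 °C and at 31.2, 32.1, 15.6 and 16.5 CPM at 6 °C. At 22 °C the mice were split, with 29.0 and 11.7 CPM in mice 1 and 2 and 75.4 and 64.5 CPM in mice 3 and 4. The highest 22 °C mouse was 6.42 times the lowest, the widest spread of any of the 9 genes in any group. At 6 against 30 °C the ranges were apart and the log2 fold change was -1.77 ± 0.51 (3.41-fold lower, adjusted p = 0.0141). With 30 °C mice A and B left out it no longer passed (-1.55, adjusted p = 0.0917). Neither step passed alone, with -0.84 ± 0.50 at 22 against 30 °C (adjusted p = 0.204) and -0.93 ± 0.51 at 6 against 22 °C (adjusted p = 0.184). Without 22 °C mouse 2 the latter passed (-1.24, adjusted p = 0.0328). C4b shares 34.6% of its 50-base stretches with C4a, which held 468 counts beside 20945 for C4b.

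The mean sum of the fibroblast markers, 12 genes with none at 0, had the same order of groups as C1ra. This sum ranged from 2784.5 to 5296.6 CPM at 30 °C, from 1112.6 to 1597.0 CPM at 22 °C and from 962.3 to 1195.5 CPM at 6 °C. The ranges at 22 and 6 °C overlapped. Col3a1 was the largest part of the sum (means of 1715.9, 569.3 and 468.4 CPM). At 6 against 30 °C 10 of the 12 were lower, beside 31.5% of all genes. At 6 against 22 °C 4 of the 12 markers were lower and 1 was higher, beside 17.4% and 16.9%. Their part in the results of C1ra and C4b was not tested.

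Properdin was also lower at 22 than at 30 °C. Cfp (ENSMUSG00000001128, chrX:20925454-20931555, minus strand) stood at 21.8, 20.6, 35.5 and 50.3 CPM in 30 °C mice 1, 2, A and B. It stood at 9.99, 5.78, 12.7 and 8.67 CPM at 22 °C and at 16.1, 20.9, 14.4 and 12.2 CPM at 6 °C. All 22 °C mice lay below all 30 °C mice, while the 6 °C range overlapped both others. The log2 fold change at 22 against 30 °C was -1.77 ± 0.32 (3.41-fold lower, adjusted p = 0.0011), and it still passed without mice A and B (-1.17, adjusted p = 0.00834). At 6 against 30 °C it was -1.01 ± 0.31 (adjusted p = 0.0168). That call was lost without mouse B (-0.71, adjusted p = 0.0501) and without both A and B (-0.40, adjusted p = 0.245). At 6 against 22 °C it was 0.76 ± 0.32 (adjusted p = 0.0874), and passed without mouse B (adjusted p = 0.0438) or without both (0.77, adjusted p = 0.0234). The difference of the steps was 2.53 ± 0.58 (adjusted p = 0.00792), and 1.94 without A and B (adjusted p = 0.0101). Relative to C1qa, Cfp ranged from 0.339 to 0.594 in the 8 mice at 30 and 22 °C and from 0.695 to 0.943 at 6 °C. Markers of neutrophils, which also store properdin, summed to between 4.14 and 12.7 CPM in every library (9 genes, of which 1, Ly6g, stood at 0). The ranges of these sums overlapped between the groups. Most of the sum was Csf3r (means of 5.42, 0.884 and 3.26 CPM at 30, 22 and 6 °C) and Mmp9 (2.77, 5.06 and 1.53 CPM). Of the 4 neutrophil markers tested, 1 was lower and 0 were higher at 22 than at 30 °C, beside 22.8% and 21.8% of all genes. The lower gene was Csf3r (-2.6, adjusted p = 0.0013). At 6 against 30 °C S100a8 and S100a9 were higher and 0 of the 4 were lower, beside 25.3% and 31.5% of all genes. Both had means of at most 1.1 CPM in any group. At 6 against 22 °C 2 of the 4 neutrophil markers were higher and 1 was lower, beside 16.9% and 17.4% of all genes. Their part in the Cfp result was not tested.

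Factor B was measured at low counts and passed no test. It is the zymogen whose fragment forms the alternative enzyme on C3, and its gene Cfb (ENSMUSG00000090231, chr17:34856374-34862518, minus strand) held 8 to 158 counts per library. It stood at 0.949, 0.643, 0.599 and 1.73 CPM at 30 °C, 0.891, 0.477, 1.86 and 0.924 CPM at 22 °C, and 0.974, 1.30, 0.425 and 0.42 CPM at 6 °C. The ranges of all 3 groups overlapped. The log2 fold change was -0.31 ± 0.49 at 6 against 30 °C (adjusted p = 0.605), 0.17 ± 0.47 at 22 against 30 °C (adjusted p = 0.796) and -0.48 ± 0.48 at 6 against 22 °C (adjusted p = 0.464). Of the Cfb exons, 79.5% lie under the same-strand gene Gm20547, which was listed at 0 counts in all libraries.

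**Figure D3:**
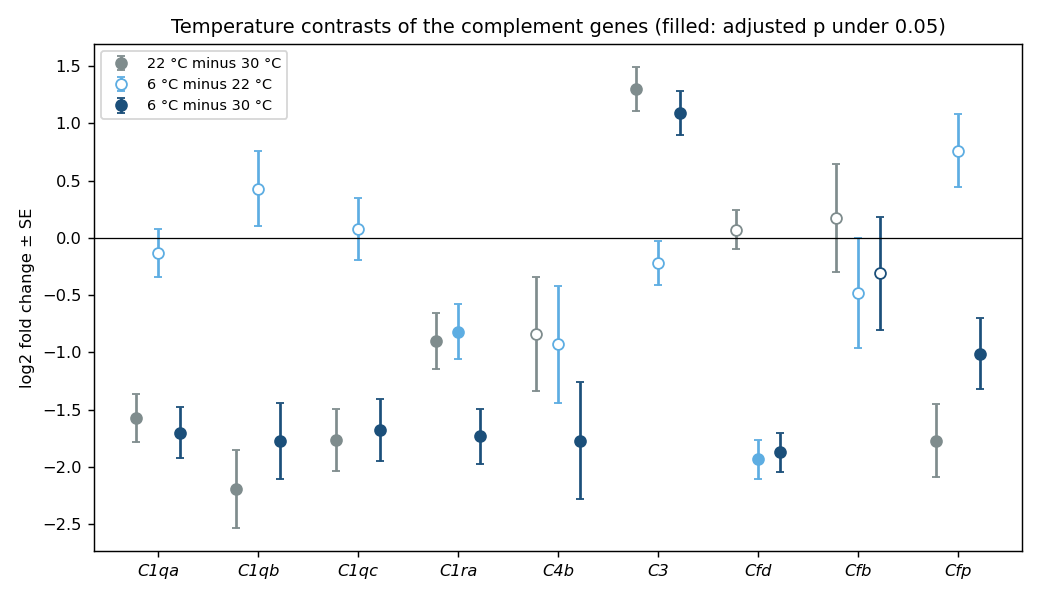
Log2 fold changes of the 9 genes for 6 against 30 °C, 22 against 30 °C and 6 against 22 °C, with bars of 1 SE and filled points at an adjusted p under 0.05 (edgeR's quasi-likelihood test). Cfd is lower only in the comparisons with 6 °C, C3 lies above 0 in both comparisons with 30 °C, and the C1q chains lie at -2.19 to -1.57 there.

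Per exon length the order of the 9 genes changed little with temperature. Cfd was first and C3 second at each temperature, and Cfb was last, with a mean of 0.276 to 0.368 RPKM. The length used for Cfb includes the 79.5% of its exons under Gm20547. How reads there were counted is not given, so the level and rank of Cfb per length are uncertain. At 30 °C the RPKM ranges of neighbours overlapped along the order C3, C1qb, C1qa, C1qc, Cfp and C4b. At 22 °C C3 stood clear of the C1q chains, with a lowest mouse of 148.3 RPKM against a highest C1qa value of 22.1 RPKM. C1qa ranked next at 22 °C and C1qb at 30 and 6 °C, but their ranges overlapped at every temperature.

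Within a temperature, the 9 genes often had their extremes in the same mouse. At 6 °C all 9 were highest in mouse 2, where 25.7% of all genes tested were highest, and 7 were lowest in mouse 4 (27.4% of all genes). At 22 °C all 9 were lowest in mouse 2 (26.1%) and 8 were highest in mouse 3 (27.0%). At 30 °C 7 were highest in mouse B (24.4%). The macrophage, fibroblast and white adipocyte sums were also highest in 6 °C mouse 2 and lowest in 6 °C mouse 4, at 326.6, 962.3 and 746.6 CPM. In the other groups the white adipocyte sum followed the members only in part. At 22 °C it was highest in mouse 3 (10963.4 CPM), as 8 of the 9 genes were. It was not lowest in mouse 2 there (7082.5 CPM), which lay above mice 1 and 4. At 30 °C it was lowest in mouse B (4962.0 CPM). The part of tissue composition in this pattern was not tested.

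Genes with the most similar profile over the 12 libraries were ranked by the root mean square difference of centred log2 CPM, among 12144 candidates that left out the 9 genes themselves. For C1qb they were Csf1r (0.15), Fcgr3 (0.16) and Fcgr2b (0.17), which encode the receptor for the macrophage growth factor and receptors for antibodies. For C1qa they were the collagen genes Col1a2 (0.15) and Col1a1 (0.16) and the protease gene Ctsk (0.16), and for C1qc Unc93b1 (0.15), Rgs10 (0.16) and P2rx7 (0.16). Cfp was nearest to the mannose receptor gene Mrc1 (0.17), then Plxnb2 (0.20) and Naip6 (0.21). Cfd was nearest to Fbxo36 (0.22), Pla2g16 (0.23), a phospholipase of fat cells, and Glb1l2 (0.24). C3 was nearest to Acp5 (0.21), Sfxn1 (0.23) and Hist1h2bc (0.24), and C1ra to Mxra8 (0.18), Dpt (0.18) and Plppr3 (0.19). The nearest genes to C4b were Ube2c (0.38), C2 (0.39) and Plppr3 (0.47), and those to Cfb were Ttc39c (0.38), Chrdl1 (0.39) and Cd248 (0.44). Among the 9, the closest pairs were C1qa with C1qc (0.14), C1qb with C1qc (0.23) and C1qa with C1qb (0.31). These likenesses are descriptions and carry no test.

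The other genes of the pathway were taken from a list of 46, of which 27 were tested. The other 19 had at most 26 counts in any library. At 6 against 30 °C 12 of the 27 were lower and 3 higher, beside 31.5% and 25.3% of all genes. At 22 against 30 °C 11 were lower and 3 higher (22.8% and 21.8% of all genes), and at 6 against 22 °C 9 were lower and 7 higher (17.4% and 16.9%). Their median log2 fold changes were -0.74, -0.26 and -0.29, beside -0.11, -0.02 and -0.03 for all genes.

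The 2 other genes tested from the C1 list, C1s1 and the C1r relative C1rl, differed in direction, and C1s1 was lower as C1ra was. C1s1, the protease activated by C1r, stood at 45.8 to 74.0 CPM at 30 °C, 29.2 to 38.5 CPM at 22 °C and 19.0 to 22.4 CPM at 6 °C, in non-overlapping ranges. It was lower at 6 than at 30 °C by a log2 fold change of -1.45 ± 0.14 (adjusted p = 2.4e-06). C1rl, a relative of C1r, rose in the opposite order, with 14.1 to 16.8, 20.8 to 27.5 and 44.4 to 50.5 CPM. Its log2 fold change at 6 against 30 °C was 1.58 ± 0.09 (adjusted p = 6.6e-08), and 0.60 and 0.98 for the steps to 22 and to 6 °C (adjusted p of 0.00024 and 1.3e-05).

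Upstream and terminal components were sparse. Of 8 lectin route genes 2 were tested, and the protease gene Masp2 was lower at 6 than at 30 °C (-2.15, adjusted p = 0.0141) at a mean of 0.087 against 0.406 CPM. Masp2 held 1 to 5 counts per library at 6 °C. Of its exons, 54.9% lie under Tardbp on the opposite strand, so its reads cannot be assigned with certainty. Fcna, a ficolin, had -0.53 (adjusted p = 0.255). C2, the partner of C4, was lower by -1.84 ± 0.49 (adjusted p = 0.00777), and 42.8% of its exons lie under Gm20547. C4a had 0.42 ± 0.41 (adjusted p = 0.396). Of 7 terminal genes 2 were tested: C7, a part of the membrane attack complex, was lower by -1.43 ± 0.29 (adjusted p = 0.00119). C8g, a subunit of C8, had -0.23 at 6 against 30 °C (adjusted p = 0.0924), after 0.65 at 22 against 30 °C (adjusted p = 0.00049) and -0.88 at 6 against 22 °C (adjusted p = 0.00012).

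Of 5 soluble regulators tested, 4 were lower at 6 than at 30 °C and 1 was higher, beside 31.5% and 25.3% of all genes. Clu, which encodes clusterin, an inhibitor of the membrane attack complex, had the smallest p. It stood at 147.7, 102.4, 189.2 and 194.4 CPM at 30 °C, at 17.4 to 29.2 CPM at 22 °C and at 11.6 to 22.0 CPM at 6 °C. Its log2 fold change was -3.27 ± 0.28 (9.63-fold lower, adjusted p = 3.9e-06). Also lower, and named after their values were seen, were the C1 inhibitor gene Serping1 (-1.22, adjusted p = 4.6e-06) and the vitronectin gene Vtn (-0.74, adjusted p = 5.2e-05). Cpn2, a subunit of the carboxypeptidase that inactivates the small complement fragments, was higher (0.85 ± 0.18, adjusted p = 0.00155).

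Of 6 membrane regulators tested, Cd55, which speeds the decay of the C3-cleaving enzymes, was lower at 6 than at 30 °C (-1.48 ± 0.32, adjusted p = 0.00183). Cr1l, named after its values were seen and also a brake on C3 cleavage, was lower too (-0.28 ± 0.08, adjusted p = 0.00911), which did not pass with mice A and B left out (-0.26, adjusted p = 0.0619). Cd59a, which blocks the membrane attack complex, was higher by 0.47 ± 0.09 (adjusted p = 0.00076), but not with scaling by total counts (0.16, adjusted p = 0.0733). Cd59b had 0.14 ± 0.11 (adjusted p = 0.284).

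Receptor genes were low at 22 °C, and several were higher again at 6 °C. All 8 receptor genes tested were lower at 22 than at 30 °C, beside 22.8% of all genes, and 5 were higher at 6 than at 22 °C, beside 16.9%. Cd93, found on endothelial and myeloid cells, had the smallest p at 6 against 30 °C (-1.05 ± 0.14, adjusted p = 3.9e-05), and Lrp1, a scavenger receptor, had -0.19 ± 0.18 (adjusted p = 0.40). The 5 that were higher at 6 °C, named after their values were seen, were the anaphylatoxin receptor genes C3ar1 and C5ar1 and the integrin genes Itgam, Itgax and Itgb2, whose products bind C3 fragments. C3ar1, the receptor for the fragment released from C3, stood at 10.6, 11.4, 55.6 and 45.0 CPM in 30 °C mice 1, 2, A and B. It stood at 4.65, 3.22, 3.14 and 3.25 CPM at 22 °C and at 21.1, 22.7, 9.20 and 10.4 CPM at 6 °C, so that every 22 °C mouse lay below all others.

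For C3ar1 the log2 fold change was -3.12 ± 0.61 at 22 against 30 °C (adjusted p = 0.00212) and 2.17 ± 0.60 at 6 against 22 °C (adjusted p = 0.0189). The latter just missed the threshold, at a like size, without 22 °C mouse 3 (2.11, adjusted p = 0.0528) or mouse 4 (2.13, adjusted p = 0.0502). Itgb2 had -3.27 and 2.47 (adjusted p of 0.00056 and 0.00407), Itgam -2.97 and 2.29 (adjusted p of 0.00168 and 0.0101), Itgax -3.16 and 1.53 (adjusted p of 2.7e-05 and 0.0041) and C5ar1 -2.19 and 1.76 (adjusted p of 0.0015 and 0.00789). Without mice A and B the difference at 22 against 30 °C was smaller, at -1.63 for C3ar1, -2.13 for Itgb2, -1.72 for Itgam, -2.39 for Itgax and -1.38 for C5ar1 (adjusted p of 0.00815, 0.00135, 0.0111, 0.000124 and 0.0147). In that setting 6 receptors were called lower at 22 °C and 5 higher at 6 °C, and C5ar2 and Lrp1 were not called. Over all 24 alternatives the call at 22 against 30 °C was lost in 9 for C5ar2 and in 14 for Lrp1. At 6 against 30 °C C3ar1, C5ar1, C5ar2, Itgam and Itgb2 had -0.95 to -0.42, none of them called, and these values were 0.07 to 0.58 without mice A and B (adjusted p from 0.247 to 0.921). Itgb2 was called lower there without 30 °C mouse 1 (-1.05, adjusted p = 0.0494), whereas C3ar1 was called higher with mouse number as a block and mice A and B left out (0.84, adjusted p = 0.0322). The macrophage markers, given above, had the same order of groups. Of 8 genes of lipid-handling macrophages, 7 were lower at 22 than at 30 °C, beside 22.8% of all genes. At 6 against 22 °C 6 of the 8 were higher, beside 16.9%. None of these genes was at 0, and their sum, dominated by Lpl, ranged from 3892.3 to 4201.5 CPM at 30 °C, 4731.0 to 6253.0 CPM at 22 °C and 4829.9 to 6321.9 CPM at 6 °C. The 8 endothelial markers, with none at 0, summed to 1334.4 to 1604.2 CPM at 30 °C, 899.7 to 1046.3 CPM at 22 °C and 1009.3 to 1088.4 CPM at 6 °C. Of these, 6 were lower at 22 than at 30 °C and 5 at 6 than at 30 °C, beside 22.8% and 31.5% of all genes. The part of these cells in the receptor results, Cd93 included, was not tested. Of the Itgam exons, 68.7% lie under another gene, Gm49368.

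**Figure D4:**
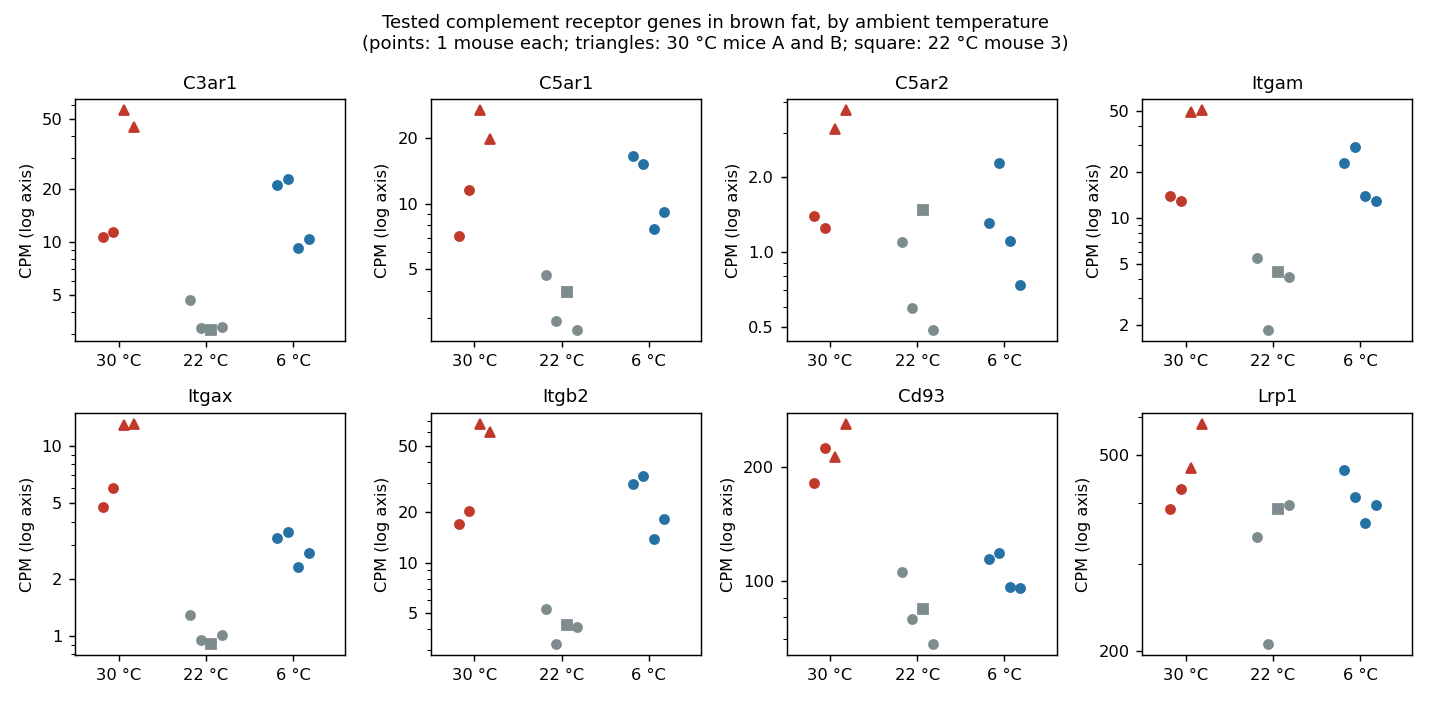
CPM of the 8 tested complement receptor genes by temperature on log axes, with 1 point per mouse. Triangles are 30 °C mice A and B and the square is 22 °C mouse 3. For C3ar1, C5ar1, Itgam, Itgax and Itgb2 every 22 °C mouse lies below every mouse of the other groups.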

How the data were processed

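The authors deposited raw read counts per Ensembl gene for 12 libraries, 1 per mouse, without scaling. Per the submitters' processing notes, the named build is GRCm38 and the named tools include STAR 2.4.2a, FastQC 0.10.1 and edgeR 3.14.0. How reads were counted, and whether by strand, is not given in the sources, so reads of overlapping genes cannot be assigned with certainty. Total counts were 18290162 to 32513051 per library and 86438386 in 22 °C mouse 3, and precision for low genes such as Cfb is limited by counting.

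Counts were analysed in R 4.3.3 with edgeR 4.0.16: filterByExpr, TMM scaling, 1 factor of 3 temperatures over 12 libraries, robust glmQLFit and two-sided glmQLFTest, with Benjamini-Hochberg adjustment over 14870 genes. Alternatives used DESeq2 1.42.0, limma 3.58.1 (voom), other scalings and filters, a threshold of 0.01, a replicate block and libraries left out. Scripts were tested on simulated data. SE is the log2 fold change over the root of F. RPKM uses GENCODE exon lengths (GRCm38, 96.6% of identifiers matched). Promoter windows of 250 bases are RefSeq's, searched on both strands.

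Named were the 9 members and, in each role list, the called gene with the smallest p per direction at 6 against 30 °C and the most expressed one not called. Added were the 3 genes nearest to each member, leaving out clone and predicted names and genes whose mean was under 1 CPM. The members and lists were chosen with earlier results of these data known. The values of 1 listed gene are not reported here.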

Additional observations from a re-analysis of the deposited data

Results flagged for a closer look

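Of 27 sets of 4 mice (9 genes at 3 temperatures), 3 had a mouse far from the other 3 by Dixon's criterion. Chance flags about 1 in 20 such sets. The C1qb level of 22 °C mouse 2, 13.4 CPM, lay below the 18.6 to 19.6 CPM of the other mice. Without it the fall at 22 against 30 °C was -2.08 (adjusted p = 0.00236). C4b in 30 °C mouse B stood at 110.7 CPM, above 67.6 to 73.7 CPM in the others, and without it the log2 fold change at 6 against 30 °C was -1.58 (adjusted p = 0.0388). Cfd in 30 °C mouse 1 stood at 3214.6 CPM, above 2131.9 to 2288.9 CPM in the others, and without it the log2 fold change at 6 against 30 °C was -1.70 (adjusted p = 3.1e-06).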

How the results depend on the processing

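Of 891 alternative values for single genes, 845 kept their direction and their side of the threshold, 16 lost the call, 5 gained it and 25 changed sign. The falls of Cfd at 6 °C (log2 fold change of -2.18 to -1.70 against 30 °C) and of the C1q chains from 30 to 22 °C, and the higher C3 at 22 and 6 °C, held under all alternatives run. Scaling by total counts moved the median of all genes by -0.32 at 6 against 30 °C and -0.26 at 22 against 30 °C, with no call of the 9 genes lost.

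Members higher at 6 than at 22 °C numbered 1 in place of 0 under DESeq2, with only those libraries and without 30 °C mice A and B, and 0 to 1 leaving out single libraries. Members lower there numbered 1 in place of 2 at the stricter threshold (0.01), and 1 to 3 leaving out single libraries. At that threshold 6 in place of 11 complement genes were lower at 6 than at 22 °C, and 2 in place of 4 members had a positive difference of the steps. Mouse numbers did not pair the libraries (correlations of -0.15 to 0.23, and 1 of 8 libraries at 22 and 6 °C correlated best with its own number). With the replicate block, over 10 libraries, 1 in place of 2 members had a negative difference of the steps, since C3 was lost (-1.42, adjusted p = 0.051). The block also lost the calls at 6 against 30 °C of C4b (-1.68 in place of -1.77, adjusted p = 0.187) and Cfp (-0.38 in place of -1.01, adjusted p = 0.366). Over all genes at 6 against 30 °C the block gave 2812 higher and 2871 lower, against 3214 and 3356 for the same libraries without it. Receptors called lower at 22 than at 30 °C numbered 4 with the block, which also lost C5ar1 (-1.06, adjusted p = 0.0747) and Itgam (-1.48, adjusted p = 0.0825), 8 in the main result, and 6 to 8 otherwise. The block called C3ar1 higher at 6 than at 30 °C (0.84, adjusted p = 0.0322), and total counts called Cd59a lower at 22 than at 30 °C (-0.19, adjusted p = 0.0455, in place of 0.07). Without the filter on low counts Cfp was lost at 6 against 30 °C (adjusted p = 0.0502).

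Among the 9 genes, signs changed only for values that passed the test neither before nor after the change. The difference of the steps became -0.15 for C1ra under voom, and 0.10, 0.29 and 0.25 for C4b under total counts, voom and the replicate block. Cfb at 6 against 30 °C became 0.07 with the block and 0.0018 without mice A and B, and at 22 against 30 °C -0.10 under total counts. Cfd at 22 against 30 °C became -0.19 under total counts, -0.14 with the block and -0.07 without mice A and B. Leaving out single libraries, ranges crossed 0 for C1qc at 6 against 22 °C (-0.0258 to 0.16), for Cfd at 22 against 30 °C (-0.09 to 0.23) and for the difference of the steps of C1ra (-0.24 to 0.66) and C4b (-0.72 to 0.67). They also did for Cfb at 6 against 30 °C (-0.68 to 0.12), 22 against 30 °C (-0.36 to 0.60), 6 against 22 °C (-0.86 to 0.0494) and the steps (-1.08 to 0.41). The causes were not tested.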
